A study of Mus musculus with 12 samples.

Results

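The genes described here are 9 members of the interleukin-6 family and its signalling: the ligands Cntf, Clcf1, Lif, Il6 and Osm, the receptor chains Il6st, Lifr and Osmr, and the feedback inhibitor Socs3. They were taken by symbol from a table of counts of 38087 gene models in mouse sciatic nerve. Of the 9 members, 8 passed the filter on low counts and were among the 22384 gene models tested, and Il6 did not pass it. The 4 groups held 3 libraries each. Control mice carried Dhh-Cre-:Tfebflox/flox;Tfe3+ and the double knockout mice (dKO) Dhh-Cre+:Tfebflox/flox;Tfe3KO, so all animals carried the floxed Tfeb alleles. Dhh-Cre acts in cells of the Schwann lineage, which lose Tfeb, while Tfe3 was missing from every cell of the dKO mice. In both genotypes the distal nerve was collected 5 days after transection, without the end next to the cut, and the intact nerve was the uninjured nerve of the other side. The protocol states removal of the epineurium for intact nerves and no such step for injured ones, so transection and this step cannot be told apart in the injury comparisons. Ages are not given in the labels used here. The series gives 3 biological replicates a group, without saying which intact and injured libraries share an animal.

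The member ligands act through receptor complexes built around the shared chain that Il6st encodes, which activate Jak kinases and the transcription factor Stat3. Ciliary neurotrophic factor, the product of Cntf, is stored in myelinating Schwann cells of intact nerve, while Lif and Il6 are known as ligands of injured nerve. Socs3 is transcribed in response to Stat3 and blocks the receptor complexes. Tfeb and Tfe3 are transcription factors of lysosome and autophagy genes, and the study asked what they do in forming repair Schwann cells. In bulk RNA, fewer cells of a type and less RNA per cell cannot be told apart.

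The libraries held between 15430999 and 35845371 counts. Levels are CPM, counts scaled to a common library size, unless a level per length is named. Summed markers of Schwann cells at large, among them Sox10, lay between 1572 and 3946 CPM in every library. The targeted genes were only weakly informative as a check of the labels, since counts over a whole gene include exons that a deletion leaves. Tfeb was at 24.5 ± 2.21 in control and 17.9 ± 1.35 in dKO intact nerve, and at 20.2 ± 3.34 and 21.2 ± 7.91 at 5 days (CPM, mean ± SD, n = 3). Tfe3 was at 59.9 ± 2.83 and 45.7 ± 2.11 in intact nerve, and at 61.4 ± 6.35 and 51.9 ± 2.21 at 5 days. None of these genotype differences passed the edgeR test (adjusted p = 0.856 and 0.883 for Tfeb, and 0.841 and 0.126 for Tfe3). Control replicate 1 at 5 days held 10712 counts of Xist and 244 of Y-linked genes, while the other 11 libraries held 0 to 23 of Xist and 1907 to 3724 of Y-linked genes. The 3 injured dKO libraries and control replicate 4 at 5 days stood apart from the rest: at the smallest total, 174 to 380.3 olfactory receptor genes were expected to have a read in these 4, against 53.43 to 75.89 in the other 8. These 4 libraries are called the second library set. No intact library and every injured dKO library was in this set, so the injury change in dKO nerve includes any difference between the sets. Genotype results at 5 days are given also with a term for this set and with control replicate 4 as the sole control. In both fits the dKO libraries are compared with this 1 control library, so they are not separate checks.

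Among the member ligands Cntf had the highest level per length in intact nerve and Clcf1 at 5 days after transection. Cntf fell 26.6-fold in control and 13.8-fold in dKO nerve, and Clcf1 rose 23.7-fold and 11.6-fold. With the library set as a term the log2 changes in dKO nerve were -3.59 for Cntf and 3.78 for Clcf1, in place of -3.78 and 3.53. Socs3 and Osm rose and Lifr fell in both genotypes, Lif passed the test in dKO and not in control nerve, and Il6st and Osmr did not pass it in either. In control nerve 3 of the 8 tested members rose and 2 fell, where 24.4% of all tested gene models rose and 22.4% fell. In dKO nerve 4 rose and 2 fell, against 22% and 22.6% of all. With the library set as a term 3 rose and 2 fell in dKO nerve, where 2146 gene models rose and 2153 fell. The median log2 change of the 8 members was 0.21 in control and 0.40 in dKO nerve, beside 0.09 and 0.05 over all tested gene models. With upper-quartile scaling the calls over all gene models in dKO nerve were 6246 higher and 4044 lower in place of 4930 and 5067, and the members' calls were 4 and 2 as before.

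**Figure D1:**
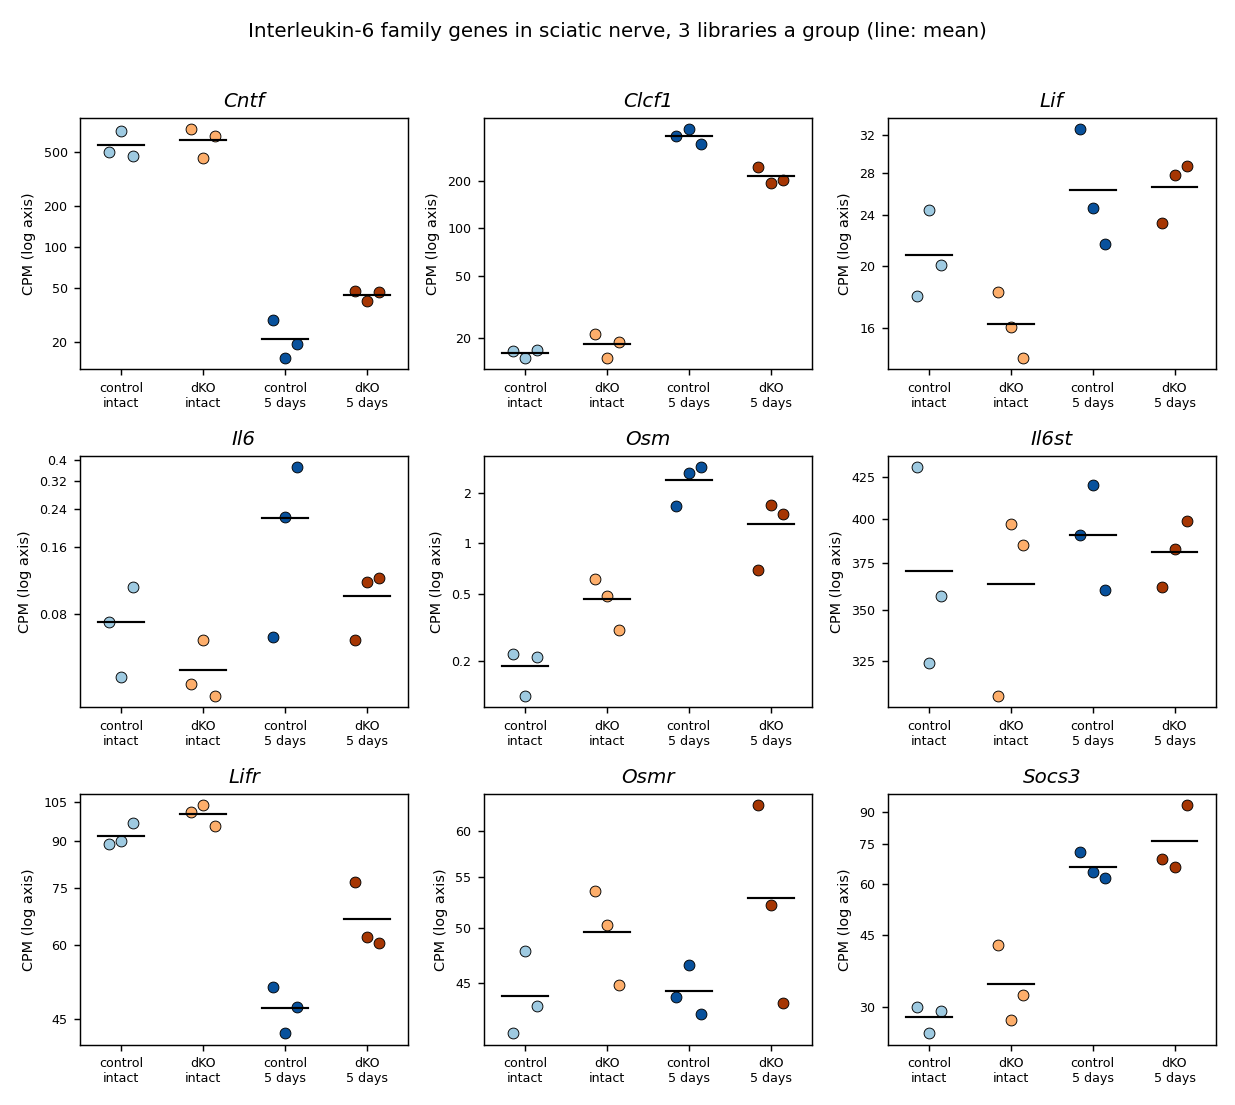
Level of each of the 9 genes in every library (points; CPM on a log axis whose range differs between panels) in the 4 groups, with the mean of 3 libraries as a line. Cntf lies between 454 and 738 in the 6 intact libraries and between 15.4 and 48.0 in the 6 injured ones, while Clcf1 lies between 15.03 and 21.4 and between 192 and 423.

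Cntf (chr19:12763660-12765632, minus strand, GRCm38, GENCODE M21) encodes ciliary neurotrophic factor, a survival factor for motor neurons. The bases before its start (chr19:12765633-12765882, minus strand, GRCm38.p6, RefSeq) are shown because its transcript changed most among the members. Capitals mark a match to the AP-1 motif TGANTCA, whose first base lies at -245 from the start.
Cntf: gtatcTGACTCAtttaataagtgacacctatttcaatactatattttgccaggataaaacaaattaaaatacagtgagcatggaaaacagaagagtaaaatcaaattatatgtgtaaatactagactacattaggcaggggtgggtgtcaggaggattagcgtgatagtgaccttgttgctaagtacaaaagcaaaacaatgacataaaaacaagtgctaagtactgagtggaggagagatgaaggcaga
Intact control libraries held Cntf at 507, 721 and 475, and intact dKO libraries at 738, 454 and 665. After transection it stood at 29.2, 15.4 and 19.4 in control and at 48.0, 40.0 and 46.9 in dKO nerve. The intact groups overlapped, every injured library lay below every intact one, and the 3 injured dKO libraries lay above the 3 injured control libraries. The injury change was -4.73 on the log2 scale in control (SE 0.28, adjusted p = 3.86e-08, edgeR) and -3.78 in dKO nerve (SE 0.27, adjusted p = 2.78e-07). Of the mean of its own genotype's intact nerve, 2.71% to 5.14% of the Cntf level was measured in injured control libraries and 6.46% to 7.75% in injured dKO libraries. The difference between both injury changes was 0.95 (95% interval 0.21 to 1.69) and did not pass the test over all gene models (adjusted p = 0.185).

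At 5 days Cntf was 2.11-fold higher in dKO than in control nerve (log2 1.07, SE 0.25, adjusted p = 0.0142, edgeR, n = 3 a group). This call was lost without control replicate 2 at 5 days (0.88, adjusted p = 0.0507) and without dKO replicate 2 at 5 days (1.02, adjusted p = 0.054). With the library set as a term the difference was 1.21 (adjusted p = 0.189). Against control replicate 4 alone, which is the same comparison, it was 1.21. Control replicate 4 was at 19.4, below each dKO library of its own set. The summed level of 7 markers of myelinating Schwann cells moved in the same direction: 1037 to 1331 CPM in injured control and 3653 to 4636 in injured dKO nerve, beside 75720 to 98910 and 82390 to 91770 in intact nerve. All 7 of these markers were higher in dKO nerve at 5 days (median log2 change 2.09), also with the library set as a term (median 2.35). Their part in the Cntf result was not tested.

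The counts of Cntf share exons with another gene. Of its exon bases, 847 (78.9%) are also exons of Zfp91, a zinc finger gene on the same strand, through a transcript annotated to read from Zfp91 into Cntf. The Zfp91 count exceeded the Cntf count in each library, by 4135 to 5482 in intact control, 4410 to 5150 in intact dKO, 2585 to 4480 in injured control and 1971 to 3849 in injured dKO nerve. In CPM this excess was 151.3 to 226.6, 153.5 to 174.8, 106.2 to 140.9 and 100.8 to 113.9 in the same order. Zfp91 as deposited fell by 2.36 on the log2 scale with injury in control (adjusted p = 7.42e-08) and by 2.37 in dKO nerve (adjusted p = 1.12e-07, edgeR). How reads of the shared exons were assigned is not given in the sources used here, so the levels of both genes are uncertain.

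**Figure D2:**
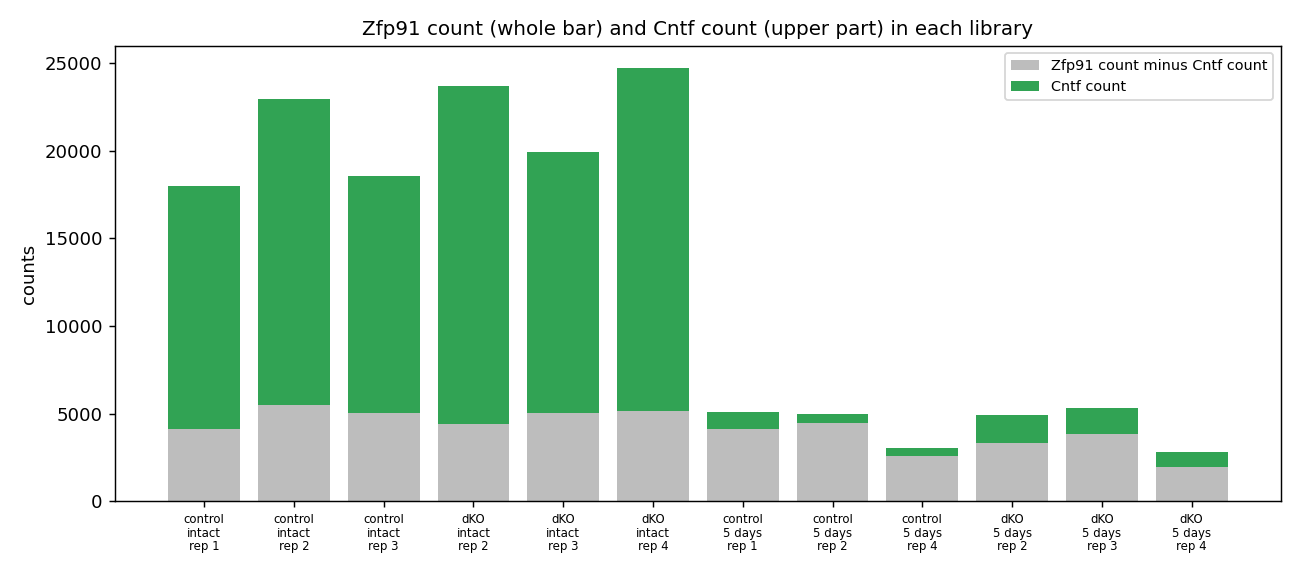
Deposited counts (not scaled for depth) in each of the 12 libraries: the whole bar is Zfp91, its upper part is as tall as the Cntf count and its lower part is the Zfp91 count minus the Cntf count. The lower part spans 1971 to 5482 counts over all libraries, while the whole bar spans 2782 to 24750.

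Clcf1 (chr19:4214238-4223490, plus strand) encodes cardiotrophin-like cytokine factor 1, which uses the same receptor as ciliary neurotrophic factor. Its level before injury was 16.6, 15.1 and 16.8 in control libraries and 21.4, 15.03 and 18.8 in dKO libraries. After transection it was 387, 423 and 341 in control and 244, 192 and 202 in dKO nerve. All injured libraries lay above all intact ones, and all injured dKO libraries below all injured control libraries. The rise was 4.57 on the log2 scale in control (SE 0.16, adjusted p = 4.02e-11, edgeR) and 3.53 in dKO nerve (SE 0.15, adjusted p = 5.48e-10).

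Clcf1 was the 1 member whose difference between the injury changes passed the test over all gene models. Its rise was smaller in dKO nerve by 1.03 on the log2 scale (the difference, dKO minus control, was -1.03, SE 0.19, 95% interval -1.45 to -0.62, adjusted p = 0.00901, edgeR). Over all tested gene models 2.17% passed with a lower and 0.737% with a higher difference, which was 485 and 165 gene models, or 296 and 224 with upper-quartile scaling. The 95% intervals of Osm (-3.69 to -0.66), Cntf (0.21 to 1.69) and Lifr (0.05 to 0.71) also did not include an equal change in both genotypes. These genes and Clcf1 were among the 3543 of 22384 gene models with an unadjusted p under 0.05 (edgeR). At 5 days Clcf1 was 1.80-fold lower in dKO nerve (log2 -0.85, SE 0.13, adjusted p = 0.000947). With the library set as a term this difference was -0.68 (adjusted p = 0.0774), and the call was lost. Against control replicate 4 alone, which is the same comparison, the difference was -0.68. Under the same term the difference of injury changes was -0.87 (adjusted p = 0.127). Control replicate 4, at 341, had the lowest of the 3 control values and lay above each dKO library of its set. The summed level of 7 repair Schwann cell markers was 1033 to 1289 CPM in injured control and 648.2 to 686 in injured dKO nerve, and 4 of the 7 were lower in dKO nerve at 5 days (1 of 7 with the set as a term). The sum of 7 markers of Schwann cells at large was 2720 to 3946 and 1572 to 1700 CPM in the same groups. The part of these cells in the Clcf1 result was not tested. A share of 8.17% of the Clcf1 exon bases is also annotated to another gene model on its strand.

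Set against each other per length, Cntf and Clcf1 changed places in every injured library. Per kilobase of exon, the ratio of Clcf1 to Cntf was 0.00923, 0.00590 and 0.0100 in the intact control libraries and 0.00819, 0.00933 and 0.00798 in the intact dKO libraries. At 5 days this ratio was 3.74, 7.75 and 4.95 in control nerve and 1.44, 1.35 and 1.22 in dKO nerve. The genotypes overlapped in intact nerve and did not at 5 days, where the control library of the second set, at 4.95, also lay above the 3 dKO values. Of the summed CPM per kilobase of the 5 member ligands, Cntf made up 97.97% to 98.58% in control and 98.17% to 98.66% in dKO intact nerve. At 5 days it made up 10.83% to 19.85% in control and 39.01% to 41.93% in dKO nerve, and Clcf1 made up 74.12% to 83.95% and 51.06% to 56.03%. The summed level itself was 451.5 to 682 and 431.3 to 697.6 in intact nerve, and 114 to 137 and 94.93 to 114.7 at 5 days (CPM per kilobase, control and dKO). These ratios and shares are descriptions without a test. They rest on the Cntf level, which is uncertain because 78.9% of its exon bases are shared with Zfp91.

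**Figure D3:**
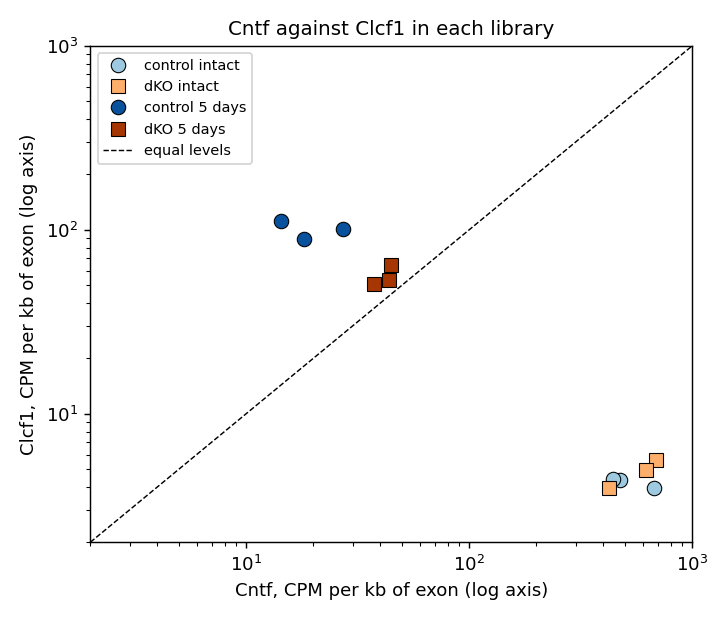
Cntf (horizontal) against Clcf1 (vertical) in each library, both in CPM per kilobase of exon on log axes, with a dashed line where both are equal. The 6 intact libraries lie far below the line, with ratios of Clcf1 to Cntf of at most 0.0100, and the 6 injured ones above it, with ratios of 1.22 to 7.75.

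Lif (chr11:4257557-4272514, plus strand) encodes leukemia inhibitory factor, which signals through Lifr and Il6st. The bases before its start (chr11:4257318-4257556, plus strand, GRCm38.p6, RefSeq) are shown because they hold the same AP-1 match as those of Cntf. Whether this motif has a part in the change of either gene was not tested. Capitals mark TGACTCA, first base at -228 from the RefSeq start at 4257568. That start lies inside the GENCODE model, and the bases between 4257556 and it are not shown.
Lif: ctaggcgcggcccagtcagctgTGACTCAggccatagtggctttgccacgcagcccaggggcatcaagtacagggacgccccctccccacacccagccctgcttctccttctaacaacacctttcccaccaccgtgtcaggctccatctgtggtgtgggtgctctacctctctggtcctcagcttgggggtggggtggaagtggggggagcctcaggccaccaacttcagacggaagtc
Before injury Lif was at 17.96, 24.5 and 20.1 in control and 18.3, 16.1 and 14.4 in dKO libraries. After transection it stood at 32.7, 24.7 and 21.6 in control and at 23.3, 27.7 and 28.7 in dKO nerve. The control groups overlapped and the dKO groups did not. The injury change was 0.34 in control nerve (log2, 95% interval -0.03 to 0.71, adjusted p = 0.123, edgeR) and 0.71 in dKO nerve, 1.63-fold (SE 0.17, adjusted p = 0.00426). With the library set as a term the values were 0.46 in control and 1.11 in dKO nerve, and the calls were as before. The difference of these changes did not pass the test (0.37, 95% interval -0.15 to 0.89, adjusted p = 0.504). At 5 days the genotype difference was 0.01 (95% interval -0.36 to 0.38, adjusted p = 0.977).

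Osm, encoding oncostatin M, a cytokine mostly made by myeloid and T cells, was found at low counts. The libraries held 6, 3 and 6 counts in control intact, 16, 16 and 9 in dKO intact, 53, 83 and 69 in injured control and 23, 61 and 26 in injured dKO nerve. Injured libraries lay above the intact ones of their own genotype in CPM, and the genotypes overlapped at 5 days. Osm rose 12.4-fold in control nerve (log2 3.64, SE 0.53, adjusted p = 5.73e-05, edgeR) and 2.75-fold in dKO nerve (1.46, SE 0.48, adjusted p = 0.0236). The difference of these changes was -2.18 (95% interval -3.69 to -0.66, adjusted p = 0.13), and at 5 days the genotype difference was -0.87 (95% interval -1.84 to 0.10, adjusted p = 0.234). The call in dKO nerve was lost without dKO replicate 3 (1.196, adjusted p = 0.106) or 4 (1.34, adjusted p = 0.0596) at 5 days, without intact dKO replicate 3 (1.48, adjusted p = 0.0608) or 4 (1.22, adjusted p = 0.0982), and with the library set as a term (1.05, adjusted p = 0.417). The summed level of 10 macrophage markers was 163.4 to 249.5 CPM in control intact, 176.8 to 290.8 in dKO intact, 760.1 to 1146 in injured control and 786.7 to 1024 in injured dKO nerve, and 9 of the 10 rose in each genotype. Of 6 neutrophil markers summing to 2.073 to 3.139 CPM in intact and 12.14 to 16.45 in injured nerve, Ly6g had no counts in control intact nerve. The 6 lymphocyte markers summed to 1.612 to 2.158 CPM in control intact and 2.067 to 2.866 in dKO intact nerve. At 5 days these sums were 2.799 to 9.768 in control and 3.202 to 6.418 in dKO nerve. The part of any of these cells in the Osm result was not tested.

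Il6, encoding interleukin-6, had 2, 1 and 3 counts in control intact, 1, 2 and 1 in dKO intact, 2, 7 and 9 in injured control and 2, 4 and 2 in injured dKO nerve. The groups overlapped, and at this depth no change was detectable. Without the filter on low counts its injury change was 1.47 in control (95% interval -0.69 to 3.62, adjusted p = 0.344, edgeR) and 0.96 in dKO nerve (95% interval -1.36 to 3.29, adjusted p = 0.532). Osm lies at chr11:4236420-4241026 and Il6 at chr5:30013114-30019981, both on the plus strand.

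Among the receptor chains, Lifr fell with injury while Il6st and Osmr showed no called change. Lifr (chr15:7090614-7197489, plus strand) encodes the leukemia inhibitory factor receptor, which the receptors for ciliary neurotrophic factor and Clcf1 also use. Intact libraries held it at 89.1, 90.2 and 96.5 in control and at 101, 104 and 95.6 in dKO mice. Injured libraries held it at 51.1, 42.6 and 47.2 in control and at 76.9, 62.0 and 60.6 in dKO mice. Every injured library lay below every intact one, and the injured genotypes did not overlap. Lifr fell 1.96-fold in control (log2 -0.97, SE 0.11, adjusted p = 4.32e-06, edgeR) and 1.504-fold in dKO nerve (-0.59, SE 0.11, adjusted p = 0.000499), and the difference of these changes did not pass the test (0.38, 95% interval 0.05 to 0.71, adjusted p = 0.229). At 5 days it was 1.42-fold higher in dKO nerve (0.50, SE 0.11, adjusted p = 0.00751). The difference was as large but not called with the library set as a term (0.50, adjusted p = 0.17). Against control replicate 4 alone, which is the same comparison, it was 0.49.

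Il6st (chr13:112464070-112510086, plus strand) encodes the signalling chain that the receptors of all member ligands share. It stood at 431, 324 and 357 in control intact, 309, 397 and 385 in dKO intact, 390, 420 and 360 in injured control and 362, 383 and 398 in injured dKO nerve. All 4 groups overlapped. Its injury change was 0.07 in control (95% interval -0.20 to 0.34, adjusted p = 0.661, edgeR) and 0.07 in dKO nerve (SE 0.13, adjusted p = 0.692), and its genotype difference at 5 days was -0.04 (95% interval -0.31 to 0.24, adjusted p = 0.885).

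Osmr (chr15:6813577-6874969, minus strand) encodes the oncostatin M receptor chain. It ranged from 40.9 to 47.8 in control intact, 44.9 to 53.6 in dKO intact, 42.5 to 46.6 in injured control and 43.3 to 63.1 in injured dKO nerve. The groups overlapped, with dKO replicate 2 at 5 days highest. The injury change was 0.01 in control (95% interval -0.27 to 0.29, adjusted p = 0.949, edgeR) and 0.09 in dKO nerve (SE 0.13, adjusted p = 0.583), and the genotype difference at 5 days was 0.26 (95% interval -0.02 to 0.53, adjusted p = 0.22).

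Socs3 (chr11:117966079-117970047, minus strand), the feedback inhibitor, rose in both genotypes. Bases before its RefSeq start (chr11:117969452-117969616, minus strand, GRCm38.p6) are shown because, of the members with a window, it alone held a match to the motif TTCNNNGAA, to which Stat proteins can bind. Capitals mark TTCTTAGAA, first base at -154 from the RefSeq start. In GENCODE M21 the gene starts at 117970047, so the bases shown lie inside that gene model and not upstream of it.
Socs3: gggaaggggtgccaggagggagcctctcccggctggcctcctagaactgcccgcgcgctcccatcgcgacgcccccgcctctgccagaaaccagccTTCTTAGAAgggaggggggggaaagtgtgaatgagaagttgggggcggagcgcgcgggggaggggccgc
Its level before injury was 29.9, 25.8 and 29.2 in control and 42.5, 27.9 and 32.1 in dKO libraries. After transection it stood at 71.8, 64.0 and 62.0 in control and at 69.1, 66.0 and 93.5 in dKO nerve. All injured libraries lay above all intact ones, while the genotypes overlapped in either state. The rise was 2.33-fold in control (log2 1.22, SE 0.16, adjusted p = 2.22e-05, edgeR) and 2.23-fold in dKO nerve (1.16, SE 0.16, adjusted p = 4.68e-05). The difference of both changes was -0.06 (95% interval -0.55 to 0.42, adjusted p = 0.932), and the genotype difference at 5 days was 0.21 (95% interval -0.13 to 0.55, adjusted p = 0.427).

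**Figure D4:**
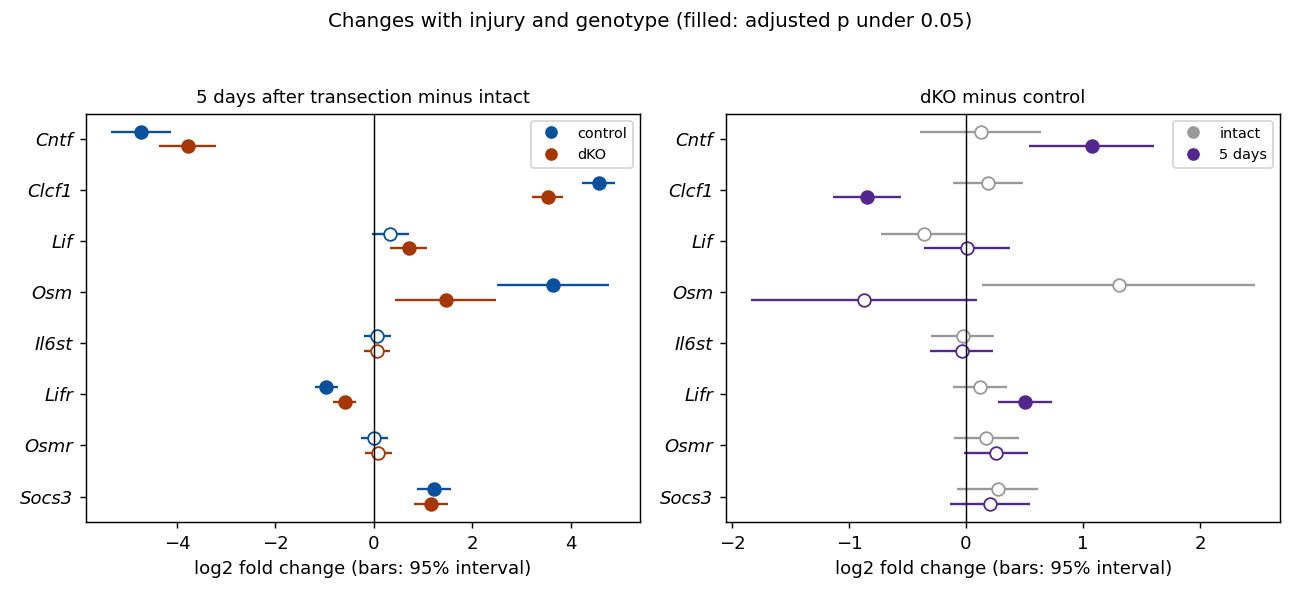
Log2 fold changes of the 8 tested members (points) with 95% intervals (bars): 5 days minus intact in each genotype on the left, and dKO minus control in each state on the right, filled where the adjusted p is under 0.05. Cntf and Clcf1 lie farthest from 0 on the left, at -4.73 and 4.57 in control nerve, and on the right Cntf, Clcf1 and Lifr are filled at 5 days and none is filled in intact nerve.

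RefSeq windows of 300 bases, from 250 before to 50 after the start, were found for 7 of the 9 members (GRCm38.p6), and Clcf1 and Osm were not among them. Each motif was searched on both strands, and the shares refer to all 32851 such windows. TGANTCA was present in Cntf, Lif, Il6 (TGAGTCA at -249) and Osmr (TGATTCA at 4), and in 7.81% of all windows. TTCNNNGAA was present in Socs3 and in 8.3% of all windows, while TTCCNGGAA, a stricter form of it, was present in no member and in 1.15%. CACGTG, to which Tfeb and Tfe3 can bind, was found in no member window and in 7.15% of all, and TCACGTGA, which includes it, in no member and in 0.974%. Il6st and both windows of Lifr held none of these motifs. The RefSeq starts of Socs3 (117969366), Osmr (6874313) and Lifr (7129572 and 7140542) lie inside their GENCODE models. Their windows therefore do not reach the bases before those models, which were not searched, and an absent match says nothing about them. A match describes the letters only.

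In intact nerve no member differed between the genotypes by the edgeR test, where 0% of all tested gene models were higher and 0.00447% (1 gene model) lower in dKO nerve. Limma-voom also called 0 of the 8 members, and DESeq2 called 0 of the 7 to which it gave an adjusted p. Osm had no adjusted p from DESeq2 here, so DESeq2 could not call it. At an unadjusted p under 0.05 there were 1299 gene models and 1 member, Osm (log2 1.31, 95% interval 0.14 to 2.47, adjusted p = 0.85). Its counts of 16, 16 and 9 in dKO and 6, 3 and 6 in control intact nerve did not overlap. The intervals of the other members were -0.39 to 0.64 for Cntf, -0.11 to 0.49 for Clcf1, -0.73 to 0.01 for Lif and -0.07 to 0.61 for Socs3. Those of the receptors were -0.30 to 0.24 for Il6st, -0.11 to 0.35 for Lifr and -0.10 to 0.45 for Osmr.

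At 5 days 2 members were higher in dKO nerve, Cntf and Lifr, and 1 was lower, Clcf1. Over all tested gene models 3.12% were higher and 8.97% lower, which was 699 and 2008 gene models, or 1075 and 1345 with upper-quartile scaling. The members' median was 0.11 beside -0.02 over all. With the library set as a term 0 members were called, and over all gene models the calls were 145 higher and 370 lower. That comparison rests on 1 control library, so fewer calls there do not show smaller differences. At an unadjusted p under 0.05 in the fit without the term there were 3 members, the same 3 genes, and 6070 of the 22384 gene models. The summed levels of 3 other marker lists did not overlap between the genotypes at 5 days. The 7 fibroblast markers summed to 4691 to 6677 CPM in control and 7794 to 8188 in dKO nerve (1 of 7 higher), and the 6 endothelial markers to 383.7 to 436.3 and 528.8 to 695.1 (1 of 6 higher). With the set as a term or without control replicate 1, 0 markers of either list were called. The 6 skeletal muscle markers summed to 5.541 to 10.06 CPM in control and 11.34 to 46.62 in dKO nerve, with 0 of 6 called by edgeR and 3 at an unadjusted p under 0.05. Their part in the Lifr result was not tested.

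Between genes, levels per kilobase of exon gave the following order. In control intact nerve Cntf, at 529 CPM per kilobase, was followed by Il6st at 33.4, Socs3 at 9.79, Lifr at 8.53, Lif at 4.79, Clcf1 at 4.25, Osmr at 3.63, Osm at 0.0813 and Il6 at 0.0302. Socs3 and Lifr overlapped there, as did Lif and Clcf1. In dKO intact nerve Cntf was at 577 and Il6st at 32.7, with Clcf1 at 4.84, Osmr at 4.09 and Lif at 3.74 overlapping their neighbours. At 5 days Clcf1 led in both genotypes, at 101 in control and 56 in dKO nerve. In control nerve it was followed by Il6st at 35.2, Socs3 at 22.8 and Cntf at 19.9, of which the last pair overlapped. In dKO nerve it was followed by Cntf at 41.9, Il6st at 34.3 and Socs3 at 26.4.

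The genes whose log2 CPM over the 12 libraries was most like that of each member were named by Pearson correlation among 10880 gene models, as a description over libraries that share injury state. For Cntf these were Syna (0.9969), Arhgef37 (0.9949) and Eps8l2 (0.9949). For Clcf1 they were Anxa2 (0.9966), Slc19a1 (0.9959) and Mki67 (0.9952), and Mki67 is a gene of dividing cells. For Lifr they were Slc9a3r2 (0.9808), Mmp28 (0.9801) and Kank1 (0.976), for Socs3 Rps9 (0.9828), Arf5 (0.9773) and Timp1 (0.9762), and for Osm Cln6 (0.9627), Casp8 (0.9593) and Emilin2 (0.9589). The members with small changes had lower values: for Lif Nudcd1 (0.9397), Rpl31-ps11 (0.9184) and Rpl30-ps9 (0.9169), for Il6st Trmt2b (0.9061) and Mrpl23-ps1 (0.7921), and for Osmr Cx3cr1 (0.7871), Rhoj (0.7802) and Slc35c1 (0.7737).

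Counts of this list and those that follow stand beside the shares over all tested gene models. With injury 24.4% of these rose and 22.4% fell in control nerve, and 22% and 22.6% in dKO nerve (median log2 change 0.09 and 0.05). With so few genes a list, counts near these shares are no result about the list. Of 7 other ligands and soluble partners, 6 were tested. In control nerve 2 rose and 1 fell with injury, and in dKO nerve 2 rose (median log2 change 0.60 and 0.37). Ebi3, a subunit of interleukin-27, rose in both genotypes (1.53 and 1.61, adjusted p = 0.00355 and 0.00305). Its call in dKO nerve was lost under the set term (0.93, adjusted p = 0.348), which left 1 of the list higher in dKO nerve and gave 3 higher and 1 lower in control nerve. Il11, encoding interleukin-11, fell in control nerve (-2.25, adjusted p = 0.0157), where injured replicates 1, 2 and 4 held 0, 27 and 19 counts, and had a change of -0.73 in dKO nerve (adjusted p = 0.366).

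Of 5 other receptor chains, 1 rose and 2 fell in each genotype (median -0.53 in control and -0.48 in dKO nerve). Cntfr, the chain that binds ciliary neurotrophic factor, fell by 1.21 on the log2 scale in control (adjusted p = 0.0494, edgeR) and by 1.32 in dKO nerve (adjusted p = 0.036). In control intact nerve its level spread from 24.7 to 114 CPM, and at 5 days it was 33.0 ± 4.58 in control and 43.2 ± 5.31 in dKO nerve (mean ± SD, n = 3). Il27ra, an interleukin-27 receptor chain, rose by 1.05 (adjusted p = 0.0478) and 1.96 (adjusted p = 0.00158). Il31ra fell in control nerve (-1.04, adjusted p = 0.00303) and Il6ra in dKO nerve (-0.77, adjusted p = 0.0154), with -0.48 (adjusted p = 0.114) and -0.53 (adjusted p = 0.076) in the respective other genotype. Under the set term 0 rose and 1, Il31ra, fell in control, and none was called in dKO nerve. Il11ra1 has near-identical gene copies and its level is uncertain.

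Of 11 kinases, Stat proteins and adaptors, 1 rose and 5 fell in control nerve, and 4 fell in dKO nerve (median -0.08 and -0.24). Gab1, a docking protein, fell by 1.53 in control (adjusted p = 4.56e-08, edgeR) and by 1.01 in dKO nerve (adjusted p = 3.74e-06). Jak2, a kinase bound to the receptors, changed by -1.13 and -0.71 (adjusted p = 6.24e-06 and 0.000519) and Ptpn11, a phosphatase of the pathway, by -0.88 and -0.70 (adjusted p = 4.39e-05 and 0.000392). Stat3 itself fell by 0.57 in control nerve (adjusted p = 0.000554), and its change in dKO nerve was -0.24 (adjusted p = 0.0835). Tyk2 fell by 0.45 in dKO nerve (adjusted p = 0.00395), and Grb2, an adaptor, rose by 0.49 in control nerve (adjusted p = 0.000761). The set term left Gab1 alone called, as lower, in dKO nerve (-0.72, adjusted p = 0.0092). At 5 days Gab1 was higher in dKO nerve (0.48, adjusted p = 0.00943), also with the set as a term (0.68, adjusted p = 0.02), and Grb2 was lower (-0.34, adjusted p = 0.0346), which was lost with that term (-0.14, adjusted p = 0.72) and without control replicate 1 at 5 days (-0.27, adjusted p = 0.139).

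Of 6 other feedback inhibitors, 2 rose in control nerve, and 3 rose and 1 fell in dKO nerve (median 0.31 and 0.17). Socs1 rose by 2.28 and 1.63 (adjusted p = 0.000127 and 0.00215, edgeR) and Socs2 by 1.35 and 1.07 (adjusted p = 0.000388 and 0.00255). In dKO nerve Ptpn2, a phosphatase, rose by 0.64 (adjusted p = 0.00184) and Pias1, an inhibitor of Stat proteins, fell by 0.31 (adjusted p = 0.0209). Under the set term 1, Socs1, rose and none fell in dKO nerve.

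Of 15 genes known to respond to Stat3, 11 rose in control nerve and 8 in dKO nerve, and none fell (median 1.43 and 1.00). Timp1, an inhibitor of matrix proteases, rose by 4.69 and 5.10 (adjusted p = 9.09e-09 and 8.07e-09, edgeR). Birc5, which also marks dividing cells, rose by 6.27 and 5.00 (adjusted p = 1.34e-08 and 1.24e-07). Il4ra rose by 2.38 and 1.91 (adjusted p = 7.57e-07 and 7.07e-06) and Bcl3 by 1.99 and 1.91 (adjusted p = 5.25e-07 and 1.12e-06). Cebpd and Pim1 rose in control nerve (1.43 and 1.41, adjusted p = 8.82e-05 and 0.00144), with changes of 0.47 and 0.42 in dKO nerve (adjusted p = 0.0845 and 0.267). The difference between genotypes did not pass the test for either (adjusted p = 0.119 and 0.264), nor for any gene of these 5 lists. Gfap, Lcn2, Serpina3n and A2m were not called in either genotype. In control nerve their log2 changes were all below 0, at -0.55, -2.66, -0.45 and -0.46 (adjusted p = 0.312, 0.0582, 0.102 and 0.118, edgeR). In dKO nerve the mean level went from 6.31 to 11.4 CPM for Gfap and from 16.3 to 21.5 for A2m. It went from 5.15 to 1.55 for Lcn2 and from 118.7 to 97.3 for Serpina3n. Under the set term 10 rose and 2, Lcn2 and Serpina3n, fell in control nerve, and 5 rose in dKO nerve (Bcl3, Timp1, Mcl1, Il4ra and Birc5). At 5 days Timp1 was higher in dKO nerve (0.97, adjusted p = 0.00898) and Birc5 lower (-1.29, adjusted p = 0.00773). With the set as a term these were 1.10 (adjusted p = 0.143) and -0.88 (adjusted p = 0.307). Many of these genes respond to other signals as well.

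**Figure D5:**
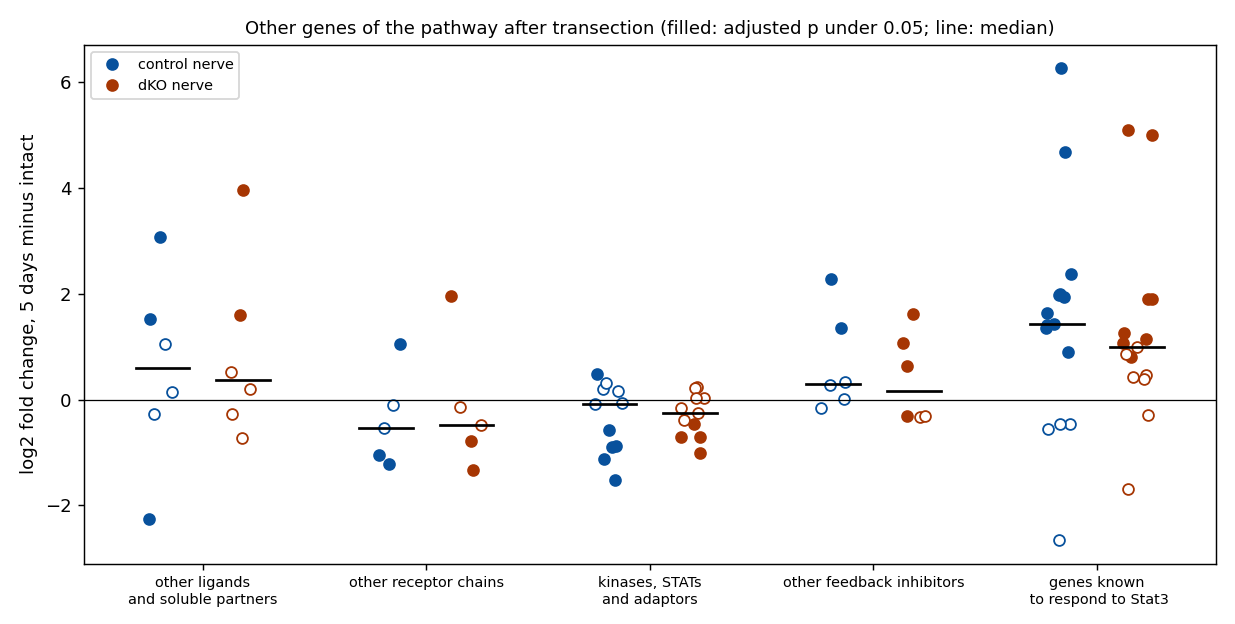
Log2 change with injury (5 days minus intact) of each tested gene in 5 lists of the pathway, in control and dKO nerve, filled where the adjusted p is under 0.05, with the list's median as a line. In the list of genes known to respond to Stat3, 11 of 15 points are filled above 0 in control and 8 in dKO nerve, while of the kinases, Stat proteins and adaptors 5 of 11 and 4 of 11 are filled below 0. Over all tested gene models 24.4% rose and 22.4% fell in control nerve, and 22% and 22.6% in dKO nerve.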

How the data were processed

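The data were 12 bulk RNA-seq libraries from sciatic nerve of mice. The authors deposited raw counts of reads per gene model (whole numbers) and a normalized signal, in which each library's counts are scaled by a single size factor. The submitters' processing notes name DESeq2, R 4.2.1 and the build mm10, and per the labels the libraries were made from polyA RNA. No source used here names the aligner, counter, strand setting or annotation.

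Counts were filtered with filterByExpr (minimum count 10), scaled by TMM and fitted with edgeR 4.0.16 (R 4.3.3, robust quasi-likelihood F-tests, 1 mean per group, all 12 libraries). P-values were adjusted by Benjamini-Hochberg over the 22384 gene models kept (threshold 0.05), and adjusted p-values are edgeR's where no tool is given. CPM used TMM library sizes, and lengths were exon unions of GENCODE M21 (GRCm38). The fit was tested on simulated data.

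Genes named were the 9 members, up to 4 genes with the smallest p of each other pathway list and comparison (further genes were named after their values were seen), the 3 most similar genes per member (mean log2 CPM of at least 3), and Tfeb and Tfe3. Zfp91 and the markers were added as values beside results. Some genes of the lists are not reported here by name. Members and lists were chosen with earlier results of these data known, and so was the second library set, defined by over 2 times the median number of olfactory receptor genes. Alternatives were DESeq2 1.42.0, limma-voom and limma-trend (limma 3.58.1, the latter on log2 of the deposited signal plus 1), DESeq2 and upper-quartile factors, no or a stricter filter (1 CPM in 3 libraries, mean count 10), only the groups compared, a replicate block, a library set term, and leaving out each library. For the pathway and marker lists, the set term and the fit without control replicate 1 were added after seeing the data. Replicate libraries differed far beyond counting noise, and p-values measure the spread between these libraries.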

Additional observations from a re-analysis of the deposited data

Results flagged for a closer look

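For Clcf1, the injury change differed between the genotypes by a test of that difference: the log2 change in dKO minus that in control nerve was -1.03 (SE 0.19, adjusted p = 0.00901, edgeR over all 12 libraries). All 3 injured dKO libraries lay below all 3 injured control libraries, and the intact groups overlapped. With a term for the second library set the value was -0.87 (adjusted p = 0.127).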

How the results depend on the processing

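The injury calls of Cntf, Clcf1, Lifr and Socs3 in both genotypes, of Osm in control and of Lif in dKO nerve kept their direction and call under every alternative run. With a term for the second library set the number of members called was 0 at 5 days and 0 for the difference of injury changes. At 5 days this term and the fit with that set's libraries only both compare the dKO libraries with control replicate 4. Leaving out 1 library each gave 5 members called in control and 5 to 6 in dKO nerve for injury, 0 for genotype in intact nerve, 2 to 3 at 5 days, and 1 for the difference. The fits against control replicate 4 alone assume that this library varies like the others, and low counts limit Il6 and Osm.

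Deviations of same-numbered intact and injured libraries of a genotype correlated between -0.0895 and 0.118. For same-numbered control and dKO libraries, which cannot share an animal, the range was -0.213 to 0.0497. Control replicate 1 held 10712 counts of Xist and 244 of Y-linked genes at 5 days, against 3 and 3068 in intact nerve. These same-numbered libraries thus differ in sex and cannot come from the same animal, so replicate number does not mark animals there. For the other libraries, with 3 a group, the correlations show no clear pairing and cannot exclude it. The fit that follows blocks by replicate number only and is not a test of pairing by animal. With replicate number as a block, the 5-day genotype values were 1.28 for Cntf (adjusted p = 0.0166), -0.79 for Clcf1 (adjusted p = 0.0076) and 0.51 for Lifr (adjusted p = 0.0417), and the Clcf1 difference was -0.9999 (adjusted p = 0.0259, edgeR). Members called in dKO nerve were then 3 higher and 2 lower, since Osm was no longer called (1.41, adjusted p = 0.0572), and no other member call changed. Over all gene models the block gave 349 higher and 1037 lower at 5 days and 116 and 294 for the difference.

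Reversals concerned values that were not called. For Il6st the difference of injury changes was 0.0277 with the authors' values, 0.0236 with DESeq2, 0.0304 with its factors, 0.1087 with the set term, 0.0231 with the stricter filter and 0.1204 with upper-quartile factors. Its 5-day value was 0.0802 with the set term, 0.0798 with the second set only and 0.0733 with upper-quartile factors, and its intact value was 0.0183 with the block. Lif at 5 days was -5e-04 with limma-voom and -0.0211 without a filter. Osmr with injury in control nerve was -0.0294 with the authors' values, -0.0334 with DESeq2 and -0.0333 with its factors. The Socs3 difference was 0.0254 with the set term, 0.0163 with the block and 0.062 with upper-quartile factors. Leaving out 1 library each, Cntf intact ranged from -0.0234 to 0.3505. Il6st ranged from -0.0766 to 0.1025 (difference), -0.0986 to 0.015 (5 days), -0.1008 to 0.0785 (intact), -0.0686 to 0.1291 (injury, control) and -0.0743 to 0.1244 (injury, dKO). Lif at 5 days ranged from -0.121 to 0.1907. Osmr ranged from -0.0678 to 0.1983 (difference), -0.1253 to 0.042 (injury, control) and -0.0572 to 0.2073 (injury, dKO), and the Socs3 difference from -0.2421 to 0.1593.

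Over all gene models, calls at 5 days were 1421 and 2804 (higher and lower) without control replicate 4 and 446 and 1268 without control replicate 1, and for the difference 368 and 908 without control replicate 4, 340 and 735 with DESeq2 and 75 and 97 with the set term. Injury calls in dKO nerve were 2146 and 2153 with that term. Intact genotype calls were 4 and 5 with DESeq2. The cause was not tested.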
